A study of Homo sapiens with 3 samples.

Results

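The focal adhesion genes PTK2, TNS3, VCL, PXN and ITGB1 were followed as hosts of circular RNA (circRNA) in human pancreatic cell lines. A circRNA is known by its back-splice junction, the place where the end of an exon is joined to the start of the same or an upstream exon. The junctions of each gene were those with both ends inside its hg19 window. Together these 5 windows held 72 of the 17156 distinct junctions listed over the 3 lines. PTK2 had 40 of them, between chr8:141675016 and chr8:141935848, and TNS3 had 22, between chr7:47323295 and chr7:47596748. VCL had 6, between chr10:75830428 and chr10:75860855, while PXN on chromosome 12 and ITGB1 on chromosome 10 had 2 each. The study set HPDE, a non-tumour line of pancreatic duct epithelium, beside 2 lines from pancreatic ductal adenocarcinoma (PDAC), SW1990 and PANC-1. HPDE was grown in keratinocyte serum-free medium with recombinant epithelial growth factor (0.2 ng/mL) and bovine pituitary extract (30 µg/mL), and both PDAC lines in DMEM with 10% fetal bovine serum, each with antibiotics. There was 1 library of total RNA per line and no replicate, so medium, line and disease cannot be told apart, and all intervals below are 95% intervals that cover counting error only.

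Focal adhesions are the sites where a cell holds on to the extracellular matrix. Integrins such as the beta-1 chain encoded by ITGB1 bind the matrix outside the cell, and a plaque of adaptor proteins joins their tails to actin inside it. PTK2 encodes focal adhesion kinase (FAK), the tyrosine kinase that is switched on at these sites. PXN encodes the scaffold paxillin, VCL the actin linker vinculin, and TNS3 a tensin that binds both integrin tails and actin. In pancreatic cancer FAK signalling is known for its part in cell migration and in the dense stroma of the tumour.

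The PANC-1 list was far longer than the others, with 13341 junctions against 3370 in HPDE and 3764 in SW1990. The lists held 1885511, 1408352 and 1273083 back-splice reads in that order, and 1 read was worth 0.0273, 0.0240 and 0.0208 RPM (reads scaled to the authors' library total, the deposited unit). Only 395608, 264156 and 200920 of these reads lay outside junctions of the RNase P RNA RPPH1 and of ribosomal and mitochondrial RNA. Any scaling by total back-splice reads therefore rests mostly on those junctions. Of 10 markers of ductal epithelium, 4 had a host name in the SW1990 table, namely KRT7, EPCAM, CDH1 and MUC1. Reads were assigned to all 4 of these hosts in SW1990, to EPCAM alone in HPDE and to none in PANC-1. Names passed on from SW1990 reached 45.5% of HPDE and 38.5% of PANC-1 junctions, against 98.0% in SW1990. Junctions elsewhere in these genes would be missed, so the counts may follow from the naming. They are no statement on the genes' linear RNA. Of the markers of other cell types (fibroblast, immune, endothelial, acinar and endocrine), COL3A1 alone was named, with 2 SW1990 reads.

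Most stretches of under 500 bases between neighbouring junction ends had the length of an annotated exon, mainly in PTK2. Longer stretches, such as that of 744 bases in PTK2, had the length of no annotated exon of their gene. No hg19 annotation was used, so exons were recognised by length alone, which does not fix their position: a stretch of under 500 bases that starts at one junction's start and stops at the next junction end was set against the exon lengths of 1 GENCODE v29 transcript per gene. The transcripts were chosen with these lengths in view, so the matches are a description. In PTK2 all 11 such stretches had the length of exactly 1 of the 32 exons of 1 PTK2 transcript, in the order that its minus strand requires, from exon 3 (227 bases) to exon 29 (107 bases). In TNS3, stretches of 112 and 132 bases had the lengths of exons 2 and 24 of the TNS3 transcript. A whole junction of 1257 bases, longer than the stretches set against exons and taken up because its length matched, had that of exon 17. Stretches of 103 and 318 bases had no exon of that length in it. In VCL 1 stretch of 129 bases had the length of exon 13. The 376-base PXN junction had the length of no exon in the PXN transcript.

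The 3 coding exons recognised outside PTK2 are printed below, 5′ to 3′ on the strand of the gene, because the most abundant VCL junctions and line-restricted TNS3 junctions begin or end on them. Positions are hg19, from the deposited junctions, and letters are from the GENCODE v29 transcripts. For VCL (plus strand) both edges are in capitals. The junction chr10:75856962-75860855 begins at the first capital base, and chr10:75842212-75857090 stops at the last. For TNS3 exon 24 (minus strand) the capitals mark the edge that takes part in the SW1990 junction chr7:47323295-47336811. For TNS3 exon 17 (minus strand) the line reads across the back-splice of a single-exon circle, chr7:47407962-47409218, with the last 20 bases of the exon in lower case and its first 20 in capitals.
VCL exon 13, chr10:75856962-75857090: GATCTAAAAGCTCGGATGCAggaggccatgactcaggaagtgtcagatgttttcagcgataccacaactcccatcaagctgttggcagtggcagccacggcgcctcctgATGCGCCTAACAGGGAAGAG
TNS3 exon 24, chr7:47336680-47336811: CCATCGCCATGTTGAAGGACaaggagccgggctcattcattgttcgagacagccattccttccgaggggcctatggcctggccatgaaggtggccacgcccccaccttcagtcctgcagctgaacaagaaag
TNS3 exon 17 back-splice, chr7:47407962-47409218: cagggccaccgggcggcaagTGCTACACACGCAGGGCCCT

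Summed over all their junctions, all 5 genes were highest in PANC-1. PTK2, the kinase, was at 1.01 RPM in HPDE (42 reads, exact Poisson interval 0.726 to 1.36), 13.1 RPM in PANC-1 (479 reads, 11.9 to 14.3) and 2.56 RPM in SW1990 (123 reads, 2.12 to 3.05). TNS3, the tensin, was at 0.695 RPM in HPDE (29 reads, 0.466 to 0.999), 18.5 RPM in PANC-1 (677 reads, 17.1 to 19.9) and 2.08 RPM in SW1990 (100 reads, 1.69 to 2.53). For both genes the order HPDE, SW1990, PANC-1 was outside counting error at each step, since no neighbouring intervals overlapped. VCL was at 1.15 RPM in HPDE (48 reads, 0.849 to 1.53) and 7.12 RPM in PANC-1 (261 reads, 6.28 to 8.04), with no SW1990 junction. PXN was at 1.32 RPM in HPDE (55 reads, 0.994 to 1.72) and 3.57 RPM in PANC-1 (131 reads, 2.99 to 4.24), again with no SW1990 junction. ITGB1, the receptor subunit, was listed in PANC-1 alone, at 2.32 RPM (85 reads, 1.85 to 2.87). A count of 0 allowed up to 0.0719 RPM in HPDE and 0.0623 RPM in SW1990 (3 reads). In bulk RNA, fewer cells with a circRNA and less of it per cell cannot be told apart.

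**Figure D1:**
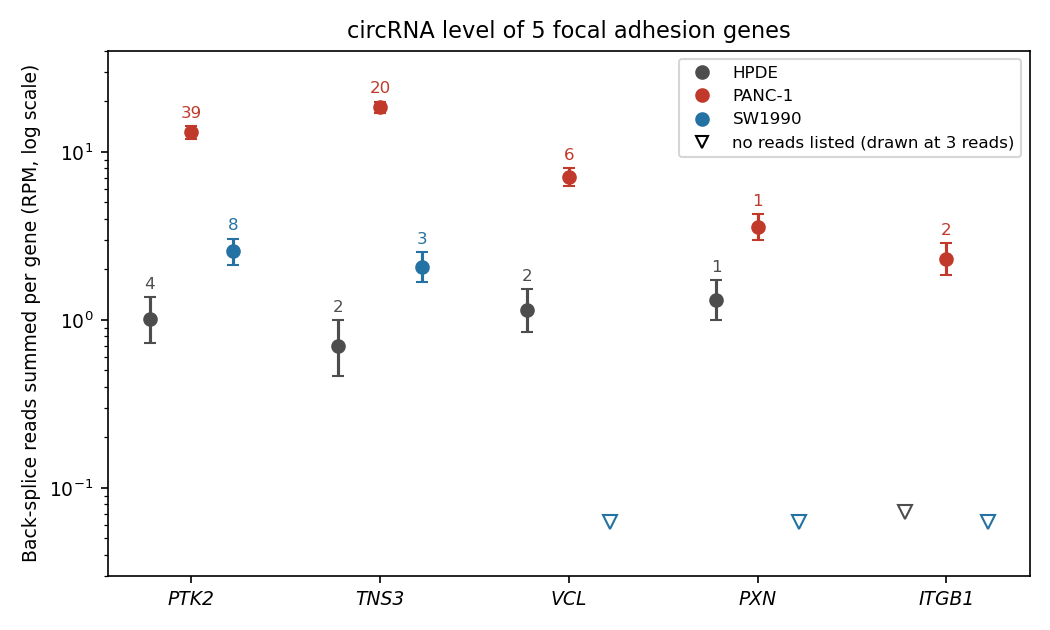
Level of circRNA from each gene, as the sum of its junctions in RPM on a log axis, with 1 library per line; bars are 95% Poisson intervals, the number above a point is its number of junctions, and open triangles at 3 reads mark a gene with none listed. PANC-1 lies above the other lines at all 5 genes, from 2.32 RPM at ITGB1 to 18.5 RPM at TNS3.

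PTK2 produced one of the largest sets of junctions. PANC-1 listed 39, SW1990 8 and HPDE 4. Among hosts named through the SW1990 table, 1 of 1696 in PANC-1 and 2 of 2416 in SW1990 had more junctions than PTK2, although those hosts were counted only where their junctions touched the interval known from SW1990. All 8 SW1990 junctions were also in PANC-1, against 44.1% of the whole SW1990 list. Of the 4 HPDE junctions 3 were in PANC-1, and chr8:141684397-141685598 (6 reads) was found in HPDE alone. A further 29 junctions were in PANC-1 alone, with 188 of its 479 reads (39.2%). They were 74.4% of the PTK2 junctions of PANC-1, against 81.7% for the whole PANC-1 list. Over the 5 genes, 22 of the 68 PANC-1 junctions had no more than 2 reads (32.4%), against 26.8% of the whole PANC-1 list.

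The acceptor at chr8:141900868, the 5′ edge of the exon with the length of exon 3, was the main entry point for PTK2 circles. In the transcript used, exon 3 is the first coding exon. Its edge was joined to 8 different donors in PANC-1, 4 in SW1990 and 1 in HPDE. These junctions carried 237 of the 479 PTK2 reads in PANC-1 (49.5%, exact Clopper-Pearson interval 44.9 to 54.1%), 53 of 123 in SW1990 (43.1%, 34.2 to 52.3%) and 29 of 42 in HPDE (69.0%, 52.9 to 82.4%). The SW1990 interval overlapped those of both other lines, while those of HPDE and PANC-1 overlapped between 52.9 and 54.1%. The next most shared edges were the acceptor at chr8:141889736, the edge of exon 4 by length, and the donor at chr8:141710990, each with 5 junctions in PANC-1. In that line 38 of 39 PTK2 junctions shared an end with another PTK2 junction (97.4%), against 51.1% over the whole PANC-1 list. A gene with more junctions has more occasions to share an end, and named PANC-1 hosts had a median of 2 junctions. Whether PTK2 differs in this from genes with as many junctions was not tested.

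**Figure D2:**
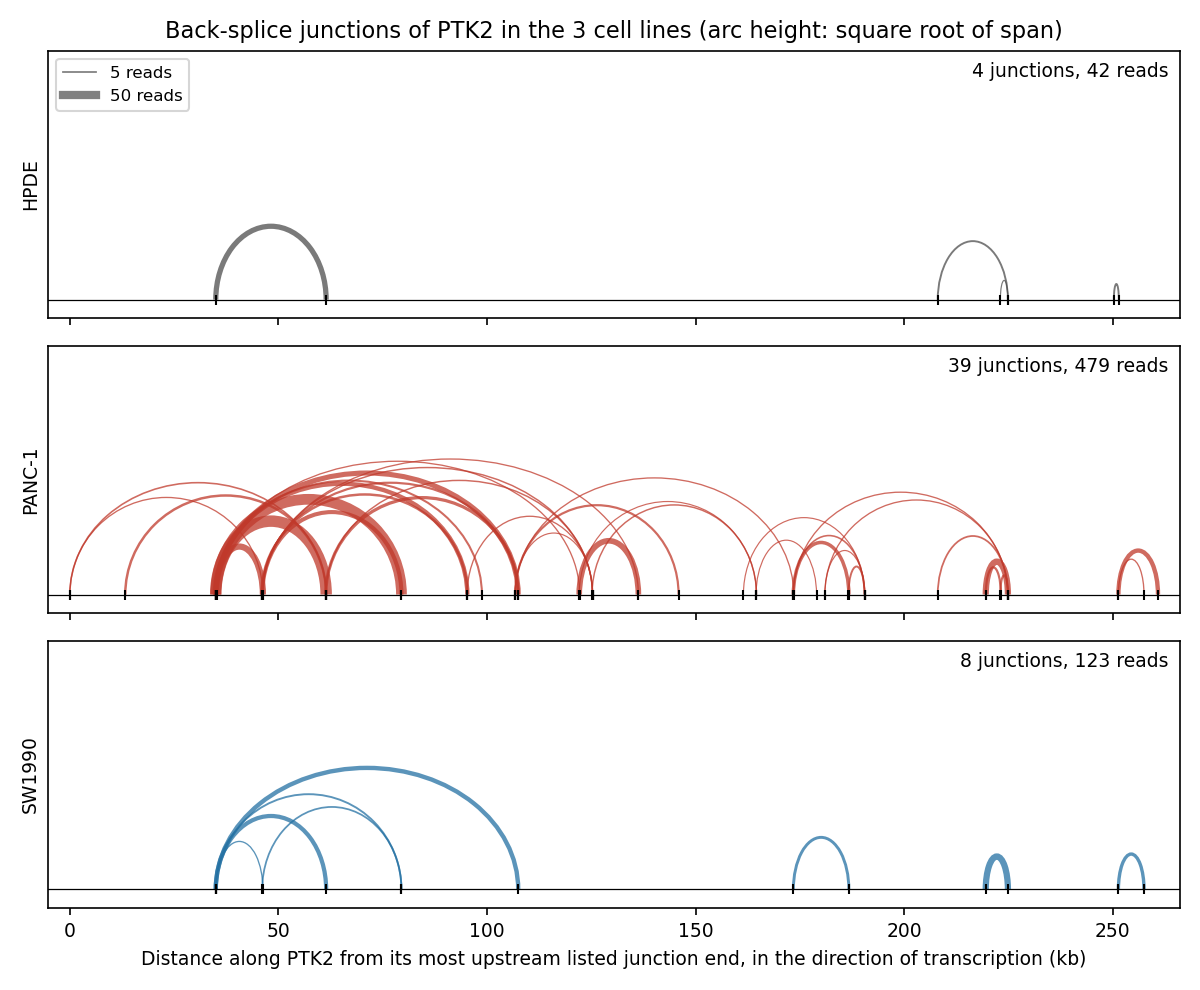
Back-splice junctions of PTK2 in each line, drawn as arcs between their ends along the gene in kb in the direction of transcription; line width follows the number of reads, and arc height the square root of the span. Many arcs of PANC-1 (39 junctions) start from 1 acceptor near the left end, which also holds the main HPDE arc and 4 of the 8 SW1990 arcs.

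The mixture of PTK2 circles differed between the lines. The junction chr8:141874411-141900868, whose ends match exons 3 to 5, was the only one in all 3 lists, with 29 HPDE, 72 PANC-1 and 22 SW1990 reads. That is 0.695, 1.96 and 0.457 RPM, so PANC-1 was 2.82-fold above HPDE (1.81 to 4.51) and SW1990 was 0.657 times HPDE (0.360 to 1.18). It made up 69.0% of PTK2 reads in HPDE but 15.0% in PANC-1 (11.95 to 18.6%), and SW1990 had 17.9% (11.6 to 25.8%). Its neighbour chr8:141856359-141900868, with the same acceptor and a donor further downstream, had 0 HPDE, 67 PANC-1 and 6 SW1990 reads. At chr8:141889570-141900868, exons 3 to 4 by length, the reads were 0, 36 and 2 in the same order. SW1990 was thus 14.7-fold below PANC-1 at the first of these (6.39 to 41.4) and 23.6-fold at the second (6.08 to 203).

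At some other PTK2 junctions the PDAC lines were closer together. The junction chr8:141710990-141716304 had no HPDE read and 36 reads in each PDAC line, 0.982 RPM in PANC-1 and 0.748 RPM in SW1990, a ratio of 1.31 (0.804 to 2.14). It was the most abundant PTK2 junction of SW1990, with 29.3% of the gene's reads (21.4 to 38.1%). Further downstream chr8:141678368-141684503, whose acceptor matches exon 29, was the only PTK2 junction higher in SW1990, with 16 reads against 2 in PANC-1 and 0 in HPDE. The long junction chr8:141828376-141900868, spanning 72493 bases, had 28 PANC-1 and 23 SW1990 reads and none in HPDE, and the PDAC lines differed there by a ratio of 1.60 (0.888 to 2.90). In contrast chr8:141799573-141813749 and chr8:141675016-141684503 had 32 and 23 reads in PANC-1 and none in either other line.

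Most TNS3 reads of PANC-1 came from junctions seen in that line alone. PANC-1 listed 20 TNS3 junctions, SW1990 3 and HPDE 2, and 18 of the 20 were in PANC-1 alone with 580 of its 677 reads (85.7%). As a share of junctions that is 90%, against 81.7% of the whole PANC-1 list. The most abundant, chr7:47436397-47512919, had 191 reads (5.21 RPM, 28.2% of the gene, 24.9 to 31.8%) and spanned 76523 bases. It was followed by chr7:47384353-47440511 with 84 reads, and by chr7:47331553-47344601 and chr7:47474880-47568745 with 62 each. None of these 4 was listed in HPDE or SW1990, and the first was 72.4-fold above the 3-read limit of HPDE and 83.6-fold above that of SW1990.

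Of the 3 SW1990 junctions of TNS3, 2 were found in SW1990 alone and held 81 of its 100 reads, where 50.1% of the whole SW1990 list was in SW1990 alone. They were chr7:47323295-47336811 with 45 reads (0.935 RPM), which takes the capital edge of exon 24 printed above, and chr7:47451325-47454804 with 36 reads (0.748 RPM). The edge at chr7:47454804 was also used in PANC-1, by 2 junctions with 4 reads in all. Likewise the exon 24 stretch was touched in PANC-1 by 1 junction with 1 read, chr7:47336680-47344601. Thus 1 of the 3 SW1990 junctions of TNS3 was shared with PANC-1, and 8 of 8 for PTK2; the difference between the genes was not tested.

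A single TNS3 junction was in all 3 lists, chr7:47512817-47568745, whose acceptor is at the edge of exon 2 by length. It had 11 HPDE, 49 PANC-1 and 19 SW1990 reads, or 0.264, 1.34 and 0.395 RPM. PANC-1 was 5.07-fold above HPDE (2.60 to 10.8), and SW1990 was 1.496 times HPDE (0.677 to 3.48), within counting error. The other HPDE junction, chr7:47384353-47385954, had 18 HPDE, 48 PANC-1 and 0 SW1990 reads, and PANC-1 was 3.03-fold above HPDE (1.73 to 5.54). The single-exon circle chr7:47407962-47409218 printed above had 10 reads, all in PANC-1. In PANC-1 19 of 20 TNS3 junctions shared an end with another, which is likewise more probable in a gene with many junctions. The median TNS3 span in PANC-1 was 15728.5 bases against 6231 over its whole list. The longest TNS3 span was 93866 bases.

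**Figure D3:**
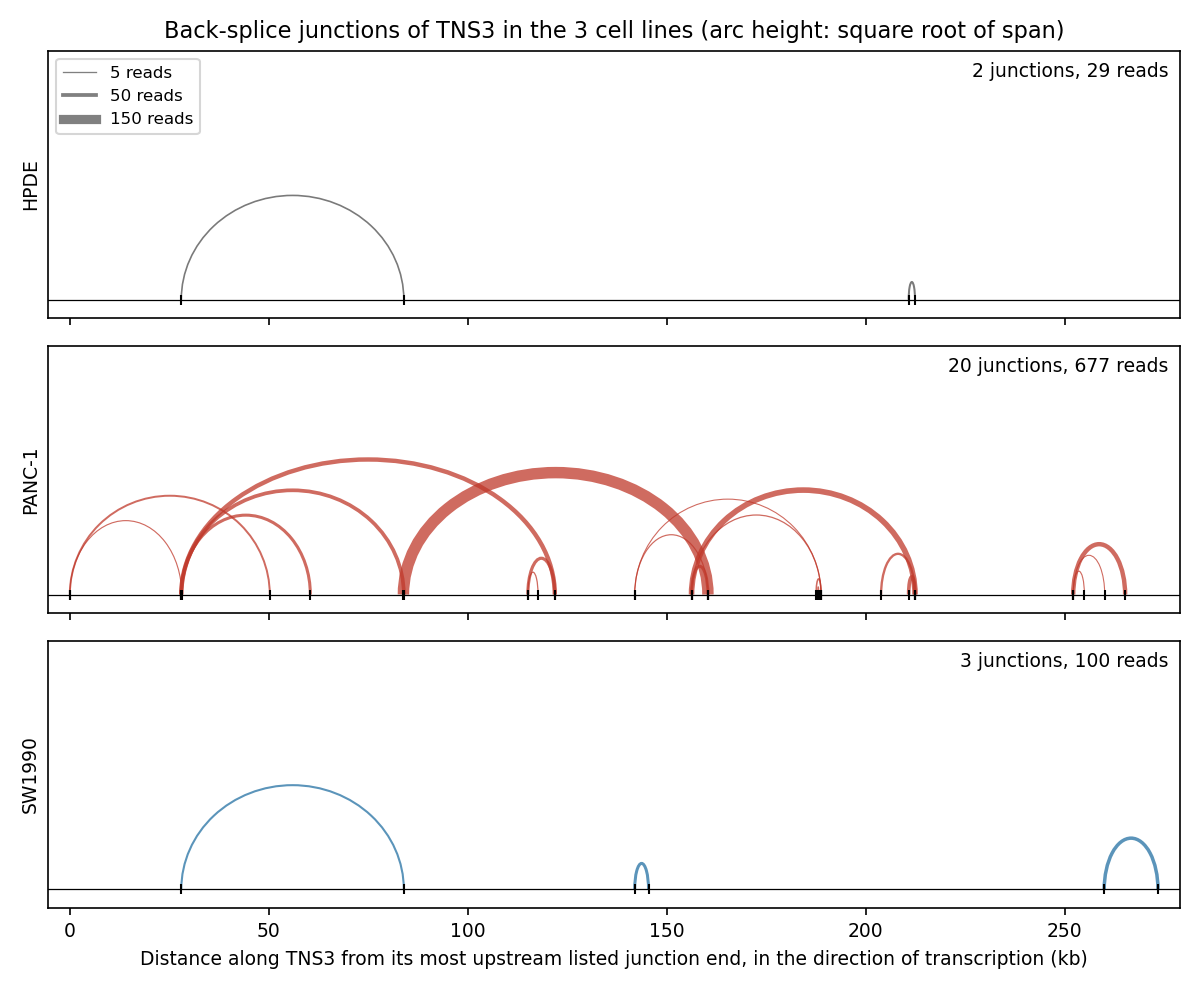
Back-splice junctions of TNS3 in each line, drawn as arcs between their ends along the gene in kb in the direction of transcription; line width follows the number of reads, and arc height the square root of the span. The thickest PANC-1 arc (191 reads) has no counterpart in HPDE or SW1990, and 2 of the 3 SW1990 arcs have none in PANC-1.

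VCL circles of HPDE and PANC-1 met at the exon 13 stretch printed above. The junction that begins on it, chr10:75856962-75860855, had 40 HPDE, 77 PANC-1 and 0 SW1990 reads, so that PANC-1 exceeded HPDE 2.19-fold (1.48 to 3.29). The junction that stops on it, chr10:75842212-75857090, had 151 reads in PANC-1 and 0 in both other lines, 57.2-fold above the 3-read limit of HPDE. The first therefore made up 83.3% of VCL reads in HPDE (69.8 to 92.5%) and 29.5% in PANC-1 (24.0 to 35.4%). Another, chr10:75830428-75834661, had 29 reads, all in PANC-1. One VCL junction was at more RPM in HPDE, chr10:75830428-75832610, with 8 reads against 2 in PANC-1, a ratio of 3.52 with an interval of 0.702 to 34.0 that includes no difference.

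PXN and ITGB1 gave few, short junctions, and none was shared between lines. HPDE listed 1 PXN junction, chr12:120651645-120652020, with 55 reads (1.32 RPM) over 376 bases. PANC-1 listed another, chr12:120660666-120662180, with 131 reads (3.57 RPM) over 1515 bases. The gene sum of PXN thus compares unlike circles, and each junction was at 0 in the other line. ITGB1 had chr10:33212535-33214890 with 64 reads and chr10:33197296-33199383 with 21 reads, both in PANC-1 alone. In the RefSeq table used for neighbours, other genes overlap all 5. PXN overlaps PXN-AS1 and 1 other long non-coding RNA gene, VCL overlaps 2 long non-coding RNA genes and the protein-coding gene AP3M1, and TNS3 overlaps 1 long non-coding RNA gene. PTK2 and ITGB1 overlap small RNA genes or pseudogenes. The deposited tables give no strand, so reads of overlapping genes cannot be told apart by position alone.

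**Figure D4:**
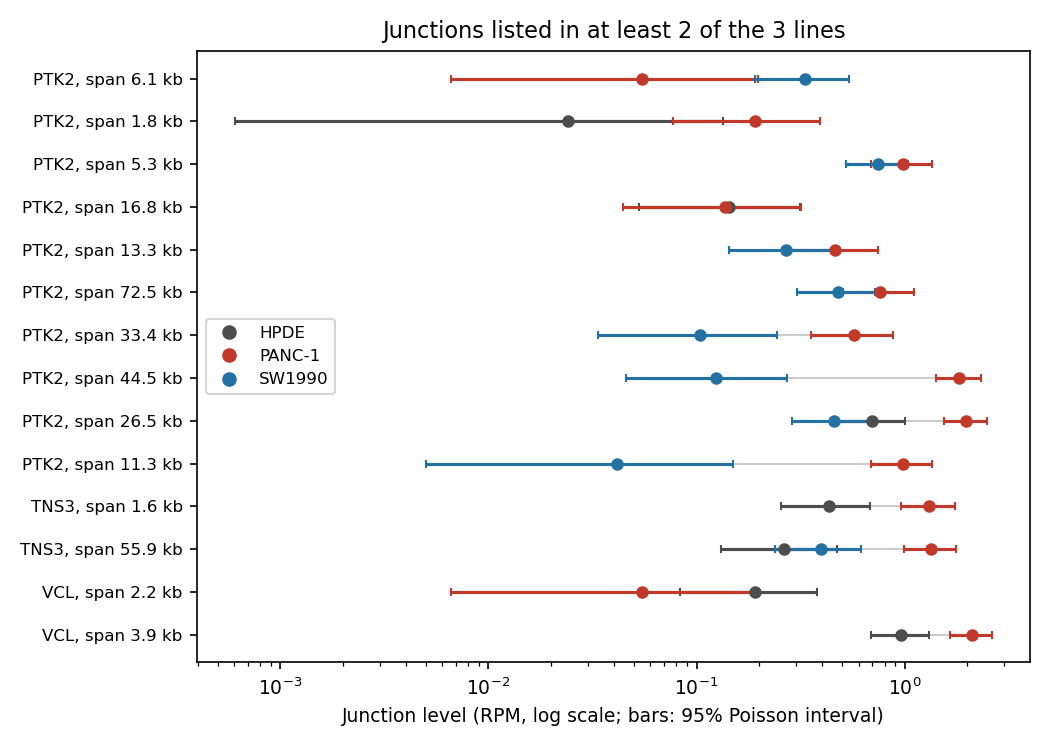
Level in RPM on a log axis of the 14 junctions listed in at least 2 lines, each named by gene and genomic span in kb, with 1 point per line and 95% Poisson intervals as bars. PANC-1 is the highest at most of them, whereas the 6.1 kb PTK2 junction is higher in SW1990 (16 reads against 2).

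The first comparison set PANC-1 against HPDE. The gene sums were 13.0-fold higher in PANC-1 for PTK2 (9.45 to 18.2), 26.5-fold for TNS3 (18.3 to 39.9), 6.18-fold for VCL (4.53 to 8.60) and 2.71-fold for PXN (1.96 to 3.78). ITGB1 was 32.2-fold above the 3-read limit of HPDE, with a lower interval end of 25.6. With at least 10 reads over the 2 libraries, 34 of the 72 junctions could be compared, and a fold of at least 2 was called. PANC-1 was higher at 31 of them, where 72% of all 6701 junctions compared were called higher. It was lower at 2, where 21.1% of all junctions were called lower. Of the 31, 27 had no HPDE read, which fixes the call once a junction has enough reads to be compared. The median log2 fold of the 34 was 3.15, against 2.41 over all junctions.

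The PXN call depended on the scaling, and the size of the PXN, VCL and ITGB1 values on 1 junction each. PXN fell below the 2-fold threshold when libraries were scaled by their total back-splice reads (log2 0.83), which shifts every log2 fold of this comparison by -0.61. Most of that total is RPPH1, ribosomal and mitochondrial reads. Without its most abundant junction, its only one in PANC-1, PXN necessarily turned lower in PANC-1, by 16.1-fold against the 3-read limit. Without their most abundant junctions, VCL dropped from a log2 fold of 2.63 to 1.38 and ITGB1 from 5.01 to 2.99. Both stayed above 2-fold, ITGB1 against the 3-read limit of HPDE. An exact conditional binomial test on the reads, which compares 2 libraries and not 2 conditions, called 31 junctions higher and 1 lower, where it called 71.2 and 20.6% of all 6701 (Benjamini-Hochberg adjustment over all of them). The call dropped by this exact test was the VCL junction with 8 and 2 reads (adjusted p = 0.123).

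The second comparison set SW1990 against HPDE, and here the 5 genes parted. PTK2 was 2.54-fold higher in SW1990 (1.77 to 3.69) and TNS3 2.99-fold (1.96 to 4.69), both with lower ends below 2. VCL and PXN, without SW1990 reads, were 18.5- and 21.2-fold lower with SW1990 set to 3 reads. The lower ends of their intervals were 14.5 and 16.6. ITGB1 was at 0 in both lines. Of 11 junctions compared, 6 were higher in SW1990 and 3 lower, where 44 and 45.7% of all 3541 junctions compared were called higher and lower. All 6 had no HPDE read and all 3 had no SW1990 read, and the exact conditional binomial test called the same numbers, where it called 43 and 44.8% of all junctions. The 2 junctions present in both lines, 1 of PTK2 and 1 of TNS3, were within 2-fold (exact conditional binomial test, adjusted p = 0.173 and 0.380). Without the PTK2 junction shared by all lines the log2 fold of PTK2 went from 1.34 to 2.75.

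The third comparison set SW1990 against PANC-1. PTK2 was 5.11-fold lower in SW1990 (4.19 to 6.28) and TNS3 8.89-fold (7.20 to 11.1). With SW1990 set to 3 reads, VCL was 114-fold, PXN 57.3-fold and ITGB1 37.2-fold below PANC-1. The lower ends of their intervals were 92.2, 46.0 and 29.6. Of 34 junctions compared, 28 were lower in SW1990 and 3 higher, where 72 and 19.5% of all 6687 junctions compared were called lower and higher. Of the 28, 23 had no SW1990 read, and of the 3, 2 had no PANC-1 read. A read count of 0 fixes the call once a junction has enough reads to be compared. The 3 higher were the TNS3 junctions found in SW1990 alone and the PTK2 junction at chr8:141678368-141684503 (exact conditional binomial test, adjusted p = 0.00795). That test called 28 lower and 3 higher, where it called 71.2 and 18.4% of all junctions. Scaling by total back-splice reads shifted every log2 fold of this comparison by 0.96, which took PTK2 from -2.35 to -1.39 and TNS3 from -3.15 to -2.19. All comparisons share libraries, so their values are not independent of one another.

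Other focal adhesion genes were read through the host symbols of the SW1990 table, which named 39 of a list of 113. Against HPDE, PANC-1 was higher at 23 of 31 hosts compared, lower at 4 and within 2-fold at 4, with a median log2 fold of 2.19. Of the 31, 13 had no HPDE read and 3 no PANC-1 read, which fixed their call. Over all 1585 hosts, 66.4% were higher and 11.4% lower, with a median of 2.06. Among hosts with at least 10 reads in each line, the highest were ASAP1 at 10.5-fold (7.11 to 16.1) and ASAP2 at 8.28-fold (5.04 to 14.4), which both regulate ARF GTPases at adhesions. PTPN12, a tyrosine phosphatase that acts on adhesion proteins, followed at 3.66-fold (1.97 to 7.21), and the actin regulator CTTN at 3.17-fold (1.68 to 6.32). At the other end VASP, an actin polymerisation factor, was 2.29-fold lower in PANC-1 (1.90 to 2.77). PPFIA1, PAK2 and MYH9 were within 2-fold, with PANC-1 at 0.612, 0.816 and 1.58 times HPDE. All 9 hosts compared in the GTPase regulator group, which also holds the lipid kinase PIP5K1C, were higher in PANC-1. Their median log2 fold was 3.05, and 3 of the 9 had no HPDE read. With total-read scaling 7 of the 9 stayed above 2-fold, where 58.3% of all hosts were called higher with a median log2 fold of 1.45. Of the integrins 1 of 3 was higher and 2 were lower, with a median log2 fold of -3.09. ITGB4, named after its value was seen, had 0 PANC-1 and 414 HPDE reads, and ITGA3 had 115 and 0. Of the kinases and phosphatases 3 of 4 were higher, of the adaptors 3 of 5, and of the actin linkers 7 of 10 with 2 lower.

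Against HPDE, SW1990 was higher at 20 of 34 list hosts, lower at 3 and within 2-fold at 11 (median log2 fold 2.001). Of the 34, 16 had no HPDE read and so were called higher by the filter itself, and the names too come from SW1990. Over all 1788 hosts, 58.8% were higher and 14.4% lower, with a median of 1.67. PTPN12 was highest at 4.27-fold (2.38 to 8.21), then ASAP1 at 3.56-fold (2.34 to 5.59), ASAP2 at 2.65-fold (1.53 to 4.79) and the integrin ITGB6 at 1.52 times HPDE (0.947 to 2.49). Lowest were PPFIA1, a liprin scaffold, at 3.79-fold lower (2.80 to 5.21) and DOCK1, an activator of RAC, at 3.37-fold lower (1.71 to 7.12). ARHGAP10 and PAK2 were at 0.637 and 0.772 times HPDE.

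Against PANC-1, SW1990 was higher at 9 of 36 list hosts, lower at 13 and within 2-fold at 14 (median log2 fold -0.16). Of the 9 higher, 6 had no PANC-1 read, which fixed their call. Over all 2061 hosts, 27.5% were higher and 39.6% lower, with a median of -0.49. VASP was 3.48-fold higher in SW1990 (2.93 to 4.16) and the actin cross-linker FLNA 2.74-fold (2.49 to 3.02), while DIAPH1 was at 1.40 times PANC-1 (0.781 to 2.60). DOCK1 was 10.3-fold lower (5.62 to 20.6), ARHGEF12 9.82-fold (6.33 to 15.9), CRKL 3.28-fold (2.60 to 4.17) and RAPGEF1 3.25-fold (1.92 to 5.68). Of the 10 hosts in the GTPase regulator group, PIP5K1C included, 8 were lower in SW1990, with a median log2 fold of -1.66. Of the integrins 3 of 4 were higher, all with no PANC-1 read, and the median was 2.81. ITGB4 had 507 SW1990 reads against 0, and LASP1, an actin-binding protein also named after its value was seen, 3361 against 0. These directions depended on the scaling. With total back-splice reads, which are mostly RPPH1, ribosomal and mitochondrial, 16 list hosts were higher and 4 lower with a median of 0.80. Of the 10 hosts in the GTPase regulator group 2 were then lower. Over all hosts the same scaling gave 39.9% higher and 21.9% lower, with a median of 0.47. A host enters these counts only through an SW1990 junction, so hosts without one, VCL, PXN and ITGB1 among them, are missing, and a host sum of 0 in another line does not show that the gene had no circRNA there.

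**Figure D5:**
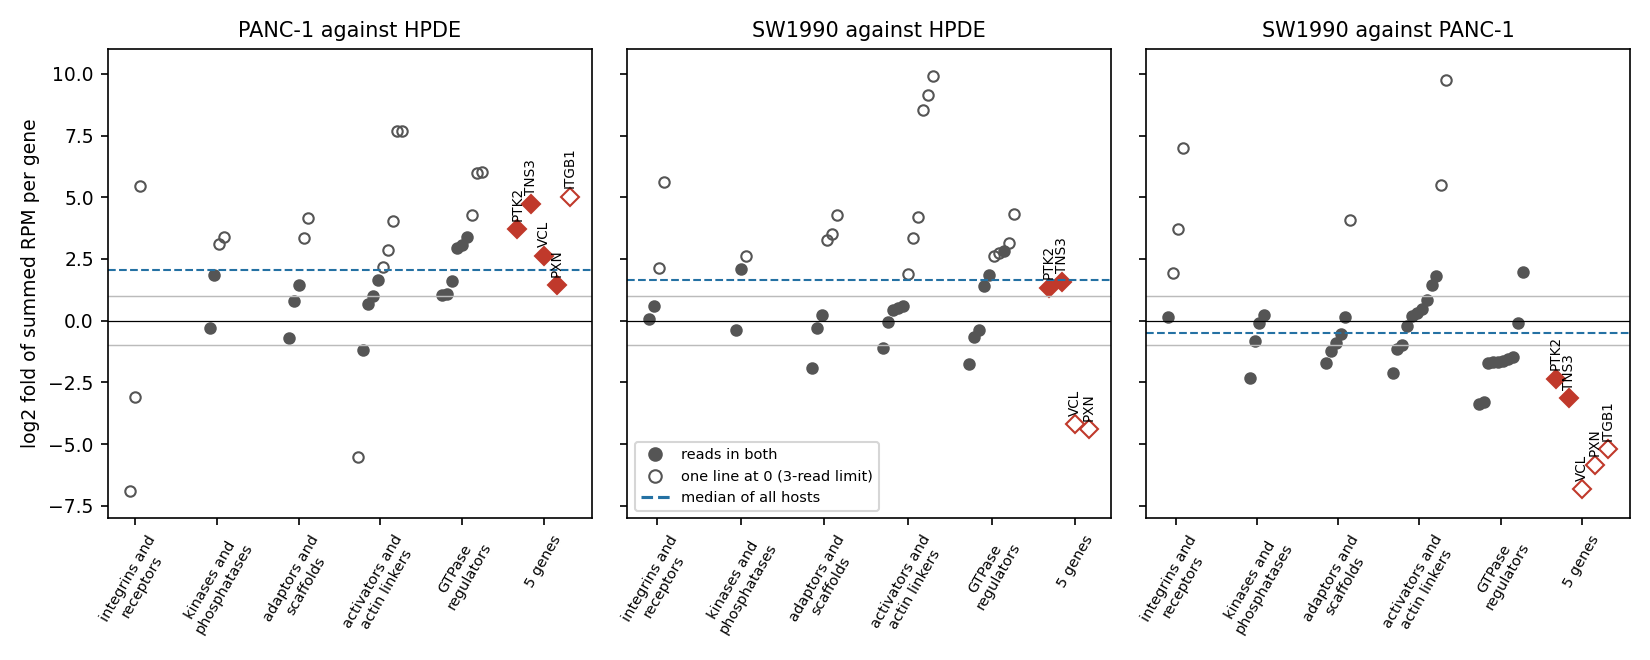
log2 fold of summed RPM for focal adhesion list hosts by role (grey) and for the 5 genes by window (red diamonds) in each comparison; open symbols have 1 line at 0 and are drawn against the 3-read limit, grey lines mark 2-fold, and the dashed line is the median of all hosts. The GTPase regulator group, PIP5K1C included, lies above 0 in PANC-1 against HPDE. In it 9 of 9 were called higher (all hosts 66.4%), and 7 of 9 with total-read scaling (all hosts 58.3%). The 5 genes lie below 0 in SW1990 against PANC-1, where 39.6% of all hosts were called lower.

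Over the 3 lines, the hosts with levels most like PTK2 were DNAJB6, CREBBP and SETD3, at Euclidean distances of 0.866, 0.868 and 0.932 on the log2(RPM + 0.1) scale among 2094 hosts. DNAJB6, for example, was at 1.49 RPM in HPDE, 8.48 RPM in PANC-1 and 2.04 RPM in SW1990. Among those most like TNS3 were IPO7 and TBCD, at distances of 0.883 and 1.07. IPO7 was at 0.336, 17.5 and 1.87 RPM in the same order. PTK2 and TNS3 were summed over their windows, and the other hosts only over junctions named through SW1990. Such names reached 45.5% of HPDE and 38.5% of PANC-1 junctions, so the 2 kinds of sum are unlike measures. With 3 libraries, likeness of this kind describes level and order only.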

How the data were processed

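The members and gene lists were chosen with earlier results of these data known. RPM values were deposited for all 3 lines, per the file headers, and the deposited SW1990 table also holds the count of back-splice reads and a host symbol. Per the submitters' processing notes, TopHat2, TopHat and HTSeq were used on hg19. Tool versions, the circRNA caller, its filters and the reads that make up the RPM total were not given in the sources used here. Per the labels' protocols, TRIzol RNA went into NEBNext Ultra libraries. In each library 100% of RPM values were whole multiples of the smallest within 0.05 reads, and recovered reads equalled the count for 3764 of 3764 SW1990 junctions. One emptied line each of the HPDE and PANC-1 tables was not analysed here.

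Junctions were matched by identical position. Gene sums are sums of RPM over a window. Because these are RPM with 1 library per line, the main result is a fold with no test; a library at 0 was set to 3 reads. Intervals are exact (Poisson, Clopper-Pearson, conditional binomial) at 95%, and reads without molecular identifiers are not independent molecules. The exact conditional binomial test on recovered reads is an alternative, as are 2 other scalings, other minimums of reads, a 1-read limit, matching within 2 bases, wider windows and sums without the most abundant junction. Host symbols passed from an SW1990 junction to one that was identical, shared an end or overlapped 1 host only, which named 1533 HPDE, 5138 PANC-1 and 3689 SW1990 junctions. Named by rule were the 5 genes, the 3 most abundant junctions of each gene, junctions in all 3 lists, the 4 highest and 4 lowest list hosts with at least 10 reads in each line, and the 3 most similar hosts; other junctions were named after their values were seen. Some hosts that this rule names are not reported here. Both calling rules were run on simulated Poisson counts with planted changes. These counts vary between libraries by counting error only, so the run does not show how the calls would hold in replicates. Python 3.11.15, pandas 2.3.3 and SciPy 1.17.1 were used.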

Additional observations from a re-analysis of the deposited data

How the results depend on the processing

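No gene fold of PTK2 or TNS3 changed direction or fell within 2-fold under the alternatives run. On the log2 scale, total-read scaling gave 3.09 for PTK2 and 4.12 for TNS3 in PANC-1 against HPDE. For SW1990 against PANC-1 it gave -1.39 and -2.19, where median-of-ratios scaling gave -1.83 and -2.63. The shifts of every log2 fold under total and median-of-ratios scaling were -0.61 and -0.23 for PANC-1 over HPDE, 0.35 and 0.21 for SW1990 over HPDE, and 0.96 and 0.52 for SW1990 over PANC-1. With total-read scaling, an alternative chosen after seeing the data, the focal adhesion list in SW1990 against PANC-1 went from 9 higher and 13 lower to 16 and 4. Over all hosts the shares went from 27.5 and 39.6% to 39.9 and 21.9%. Without its most abundant junction PTK2 was at 5.15 and 2.75 against HPDE in PANC-1 and SW1990, and TNS3 at -2.67 in SW1990 against PANC-1; PXN reversed to -4.01 in PANC-1 against HPDE, since the junction left out was its only one in PANC-1. Junctions called lower in PANC-1 against HPDE went from 2 of 34 compared to 1 of 26 with at least 20 reads. With the test they were 1 of 34, where all junctions went from 21.1 to 20.6%. Those lower in SW1990 against HPDE went from 3 of 11 (all junctions 45.7%) to 6 of 18 with no minimum of reads. Shares over all junctions at the other minimums of reads are not given here, so these 2 changes have no background beside them. Matching within 2 bases changed no count by over 1.5 times. With at least 5 reads PANC-1 kept 38 of its 68 junctions in the 5 genes; at a common 200920 reads outside RPPH1, ribosomal and mitochondrial junctions, 8.76, 59.4 and 11 junctions were expected for HPDE, PANC-1 and SW1990. The cause of changes beyond these constructions was not tested. No paired analysis was possible because each line has 1 library. Depth limits single junctions most: with no reads in a line, a junction under 10 reads elsewhere was not compared.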
